A study of Mus musculus with 10 samples.

Results

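The 9 transcription factors described here, Spi1 (PU.1), Cebpa, Cebpb, Cebpd, Cebpe, Irf8, Gfi1, Klf4 and Zeb2, steer blood progenitors into the granulocyte, monocyte and dendritic cell lineages. They were taken by symbol from the 51456 genes of a deposited expression table, and all 9 were measured. The table holds 10 bulk RNA-seq libraries of sorted mouse bone marrow cells, 5 in each of 2 groups. One group was labelled HSC (haematopoietic stem cells) and came from wild-type C57BL/6J mice, with no treatment named, sorted as CD48-CD150+ cells of the LSK gate (lineage-negative, Sca-1-positive, c-Kit-positive). The other was labelled LSC (leukaemia stem cells) and came from mice in which the fusion gene MLL-AF9 drives acute myeloid leukaemia, sorted for c-Kit, CD34 and CD16/32 and against Sca-1 and lineage markers. Its genotype field also reads wild-type. The labels name neither the age of the mice, nor the vector or promoter of MLL-AF9, nor whether libraries of a group came from separate mice, so a p-value here reflects the spread among libraries, which may be technical. Disease and sort gate differ together and cannot be told apart.

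PU.1, an ETS-family factor, opens myeloid genes from the progenitor stage on, and its dose bears on the choice of lineage. C/EBP alpha is needed to form granulocyte-monocyte progenitors, C/EBP epsilon for late neutrophil granules, and C/EBP beta and C/EBP delta serve emergency and inflammatory responses. IRF8 and KLF4 favour monocytes, GFI1 represses monocyte genes in favour of neutrophils, and ZEB2 is a zinc-finger repressor used by monocytes and plasmacytoid dendritic cells.

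Several defining markers ran against the labels, so each group is called by its label only. Whether the labels were exchanged was not tested, and every direction given here would turn if they were. Ly6a, the gene for Sca-1, stood at 0.920 ± 0.917 FPKM (fragments scaled to gene length and library size; SD, n = 5) in HSC-labelled libraries and 74.2 ± 24.8 (n = 5) in LSC-labelled ones. Of 9 genes that MLL fusion proteins switch on, 7 stood lower and 0 higher in the LSC-labelled libraries, and of 8 stem cell markers tested 7 were higher and 0 lower. Cd34, for which the LSC-labelled cells were sorted, went with the labels, at 27.7 ± 13.3 and 91.3 ± 3.6 FPKM. None of the marker lists had a gene at 0 in every library. Within the HSC-labelled group replicate 2 stood apart, with a summed level of 1680 FPKM over 11 erythroid markers against 108 to 322 in the other 4. By the steps of low values, depth was estimated at 26540000 to 55420000 mapped reads in HSC-labelled libraries and 33580000 to 70540000 in LSC-labelled ones.

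The promoters of 6 of the 9 genes were in the RefSeq table used (GRCm38.p6, 250 bases before to 50 after each annotated start). They were searched on both strands for letters known from the binding sites of these factors: GAGGAA for ETS factors, TTGCNNAA for C/EBP, AAATCAC for GFI1, CCACCC for KLF and CACCTG for ZEB, and TTCNNNGAA for STAT factors. The 3 below are those of Gfi1 and Zeb2, lower in the LSC-labelled libraries, and of Irf8, a gene that GFI1 is known to repress, which was not called. Whether GFI1 bears on Irf8 in these cells was not tested. Cebpb was lower too and is not shown, and neither are Cebpa and Klf4. Their promoters held 1, 2 and 0 matches, all to the KLF letters. Capitals mark the matched letters.
Irf8, chr8:120736108-120736407, plus strand: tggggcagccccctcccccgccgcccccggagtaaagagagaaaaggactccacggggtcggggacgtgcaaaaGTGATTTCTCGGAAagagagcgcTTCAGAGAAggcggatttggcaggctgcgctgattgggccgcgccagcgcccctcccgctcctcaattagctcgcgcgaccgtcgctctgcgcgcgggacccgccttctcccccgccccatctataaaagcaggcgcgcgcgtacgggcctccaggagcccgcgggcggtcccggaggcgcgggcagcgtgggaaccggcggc
Gfi1, chr5:107725756-107726055, minus strand: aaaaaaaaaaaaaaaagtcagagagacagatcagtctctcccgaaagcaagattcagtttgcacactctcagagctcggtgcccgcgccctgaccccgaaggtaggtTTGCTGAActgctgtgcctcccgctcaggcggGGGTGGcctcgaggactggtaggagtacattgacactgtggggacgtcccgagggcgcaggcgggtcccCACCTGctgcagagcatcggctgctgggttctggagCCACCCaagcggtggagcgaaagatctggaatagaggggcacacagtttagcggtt
Zeb2, chr2:45117393-45117692, minus strand: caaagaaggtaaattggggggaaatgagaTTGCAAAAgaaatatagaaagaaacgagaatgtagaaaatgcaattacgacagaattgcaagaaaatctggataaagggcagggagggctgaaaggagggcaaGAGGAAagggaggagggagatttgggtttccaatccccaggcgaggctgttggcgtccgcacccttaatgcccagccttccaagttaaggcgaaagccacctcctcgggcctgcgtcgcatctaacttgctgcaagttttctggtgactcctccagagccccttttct

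The Irf8 promoter held 1 match to the GFI1 letters, on the minus strand at positions -176 to -170 from the start, and 2 to the STAT letters, the first of which overlaps the GFI1 match. Gfi1 held 1 match to the C/EBP letters, 2 to the KLF and 1 to the ZEB letters, and Zeb2 1 each to the ETS and C/EBP letters. Of 32851 promoters of the same length, 3.20% held the GFI1 letters, 8.30% the STAT, 10.8% the C/EBP, 28.3% the ETS, 31.5% the KLF and 20.2% the ZEB letters. An IRF response element was also searched, is present in 3.44%, and matched no entry of these 6 genes. The table holds 11 entries for the 6 genes, and the outermost start of Irf8, Gfi1 and Zeb2 is the one shown. The other Gfi1 entry held no match and the other Irf8 entry 1 to the ZEB letters. Each of the other 3 Zeb2 entries held 1 to the ETS letters, with 1 to the KLF or STAT letters. The Zeb2 entries at 45113204 to 45113503 and at 45113230 to 45113529 overlap and hold the same ETS and STAT matches. The matches describe letters and show no binding.

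**Figure D1:**
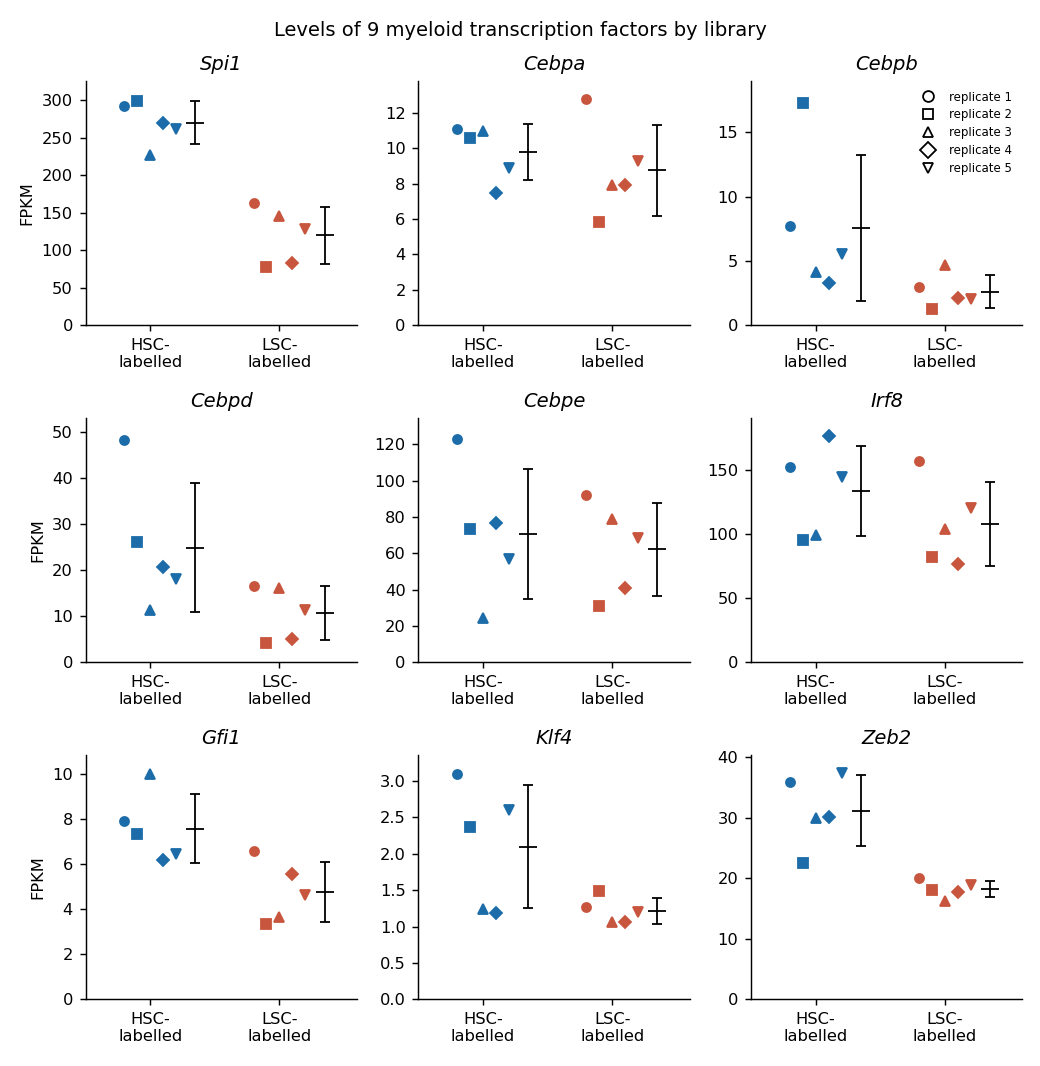
FPKM of each of the 9 factors in the 5 HSC-labelled and 5 LSC-labelled libraries, with 1 point per library, shaped by replicate number, and the mean with its SD to the right. The groups do not overlap for Spi1 and Zeb2 and overlap for the other 7.

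All 9 factors had a lower fitted level in the LSC-labelled libraries, and 5 of them passed the test: Spi1, Cebpb, Cebpd, Gfi1 and Zeb2. Cebpa, Cebpe, Irf8 and Klf4 were not called, and 0 were higher. The test was limma on log2(FPKM + 1) over the 13431 genes that reached 1 FPKM in 5 or more libraries, a filter that all 9 passed, with p-values adjusted by Benjamini-Hochberg over all of them. It called 41.0% of all genes, 13.8% lower and 27.2% higher, where 5 of the 9 factors were lower. Their median log2 fold change, LSC-labelled minus HSC-labelled, was -0.59, beside 0.11 over all genes tested. The number of factors called lower was 3 without HSC-labelled replicate 1, or without LSC-labelled replicate 2, 4 or 5, and 2 with no filter on low values. Spi1 and Zeb2 were called in each of the 17 alternatives run.

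Spi1, the gene for PU.1, was the most abundant of the 9 in both groups on the FPKM scale. The gene (ENSMUSG00000002111, plus strand) spans chromosome 2 from 91082390 to 91115756 in GRCm38, per GENCODE M21, as do the coordinates that follow. The HSC-labelled replicates 1 to 5 stood at 292, 299, 227, 270 and 262 FPKM, and the LSC-labelled ones at 163, 78.1, 146, 83.1 and 128. Every LSC-labelled library lay below every HSC-labelled one. The groups' means were 270 ± 28.4 and 120 ± 37.8 FPKM, the second 2.26-fold lower. The fitted difference in mean log2(FPKM + 1) was -1.22 with SE 0.199 (limma, adjusted p = 0.000603). No overlap in this direction was found for 9.80% of all genes tested, and in the opposite direction, which 0 of the 9 factors showed, for 20.0%. In bulk samples such as these, fewer cells of a type and less RNA per cell cannot be told apart. Between the groups, monocyte and macrophage markers moved with Spi1: 7 of 14 fell, 1 rose and 6 were not called. Their summed level was 1295 to 2193 FPKM in HSC-labelled libraries and 1008 to 1479 in LSC-labelled ones. Within the HSC-labelled group the sum was lowest in replicate 2, where Spi1 was highest, and highest in replicate 3, where Spi1 was lowest. In the LSC-labelled group both were highest in replicate 1. The part of these markers in the result was not tested.

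The 4 C/EBP genes split into a pair that was lower and a pair that was not called. Cebpb, on chromosome 2 at 167688915 to 167690418, stood at 7.72, 17.3, 4.13, 3.27 and 5.54 FPKM in HSC-labelled replicates 1 to 5 and at 2.97, 1.26, 4.69, 2.09 and 2.04 in the LSC-labelled ones. It was low in both groups, highest in HSC-labelled replicate 2, and only LSC-labelled replicate 3 reached into the HSC-labelled range. Its log2 fold change was -1.11 (SE 0.371, limma adjusted p = 0.0320), with an adjusted p of 0.0643 without HSC-labelled replicate 1, and of 0.0789, 0.0629 and 0.0668 without LSC-labelled replicates 2, 4 and 5. Its single annotated transcript allowed the reads to be estimated, at 121 in the library with the fewest and 1443 in that with the most. Tmem189, a gene on the opposite strand, overlaps exons of Cebpb and stood at 3.8 and 3.02 FPKM (not called). The counting is not stated to use strand, so reads from the shared stretch cannot be told apart.

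Cebpd, on chromosome 16 at 15887286 to 15891031, stood at 48.2, 26.1, 11.4, 20.6 and 18.1 FPKM in HSC-labelled libraries and at 16.6, 4.11, 16.0, 5.10 and 11.3 in LSC-labelled ones. HSC-labelled replicate 3 lay within the LSC-labelled range, and the other 4 lay above it. The log2 fold change was -1.18 (SE 0.423, limma adjusted p = 0.0438), and the adjusted p was 0.0948, 0.0720, 0.0709 and 0.0575 without HSC-labelled replicates 1, 2, 4 and 5 and 0.104, 0.10 and 0.0620 without LSC-labelled replicates 2, 4 and 5. It was called in 3 of the 10 runs that left out a library. Spidr, a gene on the opposite strand, overlaps exons of Cebpd and stood at 9.57 and 8.48 FPKM (not called). Reads from their shared stretch cannot be told apart either.

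Cebpa, on chromosome 7 at 35119293 to 35121928, kept much the same range in both groups. The HSC-labelled replicates stood at 11.1, 10.6, 11.0, 7.45 and 8.87 FPKM and the LSC-labelled ones at 12.8, 5.85, 7.95, 7.93 and 9.26, with the highest and the lowest value both among the LSC-labelled. The difference was -0.17 on the log2 scale, with a 95% interval of -0.56 to 0.21 (limma adjusted p = 0.460).

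Cebpe, on chromosome 14 at 54710360 to 54712174, was the most abundant C/EBP gene in all 10 libraries, with a coefficient of variation of 50.6% in the HSC-labelled group and 41.3% in the LSC-labelled one. It stood at 123, 73.5, 24.2, 76.5 and 56.6 FPKM in HSC-labelled libraries and 91.8, 31.0, 79.1, 40.8 and 68.4 in LSC-labelled ones. The groups covered nearly the same range, and the lowest value was that of HSC-labelled replicate 3. The log2 difference was -0.12, with a 95% interval of -1.02 to 0.78 (limma adjusted p = 0.840), which is too wide to show that the groups were alike.

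Of the 4 shares in the summed C/EBP level, those of Cebpe and Cebpd did not overlap between the groups and those of Cebpa and Cebpb did. FPKM is per length, so the 4 levels can be added. Cebpe made up 47.7% to 71.0% of their sum in the HSC-labelled libraries (median 63.5%) and 72.9% to 75.2% in the LSC-labelled ones (median 73.4%). Cebpd made up 19.1% to 25.4% (median 20.5%) and 9.13% to 14.9% (median 12.4%). The share of Cebpa was 5.84% to 21.7% and 7.38% to 14.2%, and that of Cebpb 3.03% to 13.6% and 2.24% to 4.36%. The sum itself, at 50.8 to 190 and 42.2 to 124 FPKM, overlapped too. The shares were set together after the values were seen and were not tested.

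Irf8, which commits progenitors to monocytes and dendritic cells, was the second most abundant factor. Its gene lies on chromosome 8 at 120736358 to 120756694. The HSC-labelled replicates stood at 152, 95.3, 99.5, 176 and 144 FPKM and the LSC-labelled ones at 157, 81.8, 104, 76.4 and 120. The groups overlapped, with 2 LSC-labelled libraries below the lowest HSC-labelled one. The log2 difference was -0.31, with a 95% interval of -0.80 to 0.18 (limma adjusted p = 0.290), and it was called in 0 of the 17 alternatives.

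Gfi1, on chromosome 5 at 107716657 to 107726036, stood at 7.94, 7.35, 10.02, 6.19 and 6.44 FPKM in HSC-labelled libraries and 6.61, 3.37, 3.68, 5.57 and 4.62 in LSC-labelled ones. LSC-labelled replicate 1 reached into the HSC-labelled range and the other 4 lay below it. The log2 fold change was -0.59 (SE 0.171, limma adjusted p = 0.0172). An annotated transcript on the opposite strand, A430072P03Rik, overlaps exons of Gfi1 and fell from 3.67 ± 1.01 to 1.07 ± 0.206 FPKM (limma adjusted p = 8.360e-05). The counting is not stated to use strand, so reads of the 2 cannot be told apart.

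Klf4, which monocytes carry and stem cell reprogramming uses, was the least abundant of the 9. On chromosome 4 at 55527143 to 55532466, it stood at 3.09, 2.37, 1.24, 1.19 and 2.60 FPKM in HSC-labelled libraries and 1.27, 1.49, 1.06, 1.06 and 1.20 in LSC-labelled ones. HSC-labelled replicates 1, 2 and 5 lay above the whole LSC-labelled range and replicates 3 and 4 within it. The log2 difference was -0.44 with a 95% interval of -0.83 to -0.05, and missed the threshold after adjustment (limma adjusted p = 0.0690). It passed without HSC-labelled replicate 3 or 4 (adjusted p of 0.0275 and 0.0252).

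Zeb2 was the other factor with no overlap between the groups. Its gene lies on chromosome 2 at 44983632 to 45117395 on the minus strand. The HSC-labelled libraries stood at 35.9, 22.5, 29.9, 30.1 and 37.3 FPKM and the LSC-labelled ones at 19.98, 17.99, 16.3, 17.8 and 18.8. The LSC-labelled values lay close together, with a coefficient of variation of 7.51% against 18.9% in the HSC-labelled group. The fitted log2 fold change was -0.73 (SE 0.128, limma adjusted p = 0.000962), and the ratio of mean FPKM was 1.71-fold lower. The antisense transcript Zeb2os, which overlaps exons of Zeb2, was also lower, at 1.34 and 0.794 FPKM. Since the counting is not stated to use strand, reads from their shared stretch cannot be told apart.

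**Figure D2:**
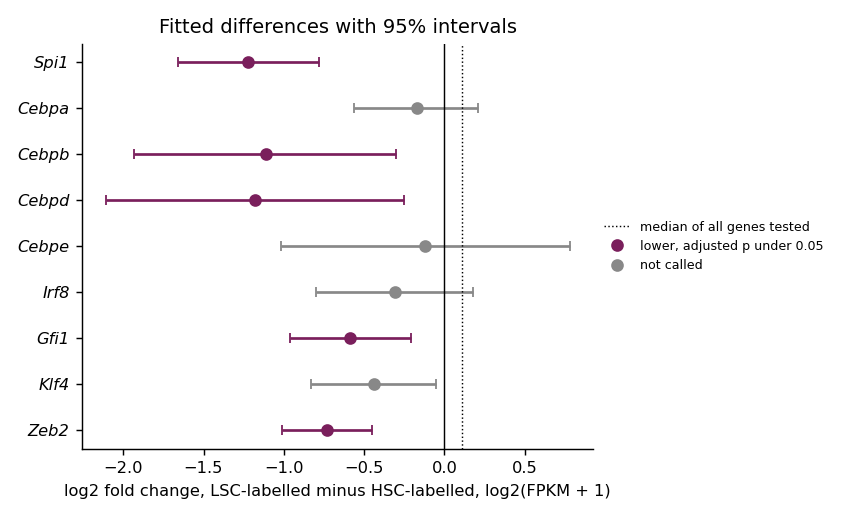
Log2 fold change of each factor (LSC-labelled minus HSC-labelled, log2(FPKM + 1) scale) with its 95% limma interval, and the median of all genes tested as a dotted line at 0.11. Spi1, Cebpb, Cebpd, Gfi1 and Zeb2 were called lower, and the intervals of Cebpa, Cebpe and Irf8 hold 0.

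The order of the levels was nearly the same in both groups, from Spi1 through Irf8, Cebpe, Zeb2, Cebpd and Cebpa to Klf4. Spi1 lay above Irf8 in all 5 HSC-labelled libraries with no overlap of their ranges (means 270 and 133 FPKM), and in 4 of 5 LSC-labelled ones, where the ranges overlapped (120 and 108). Among the HSC-labelled libraries the ranges of Irf8 and Cebpe, of Cebpe and Zeb2, of Zeb2 and Cebpd, of Cebpa and Cebpb and of Cebpb and Gfi1 overlapped, although Irf8 lay above Cebpe in 5 of 5 libraries, Cebpe above Zeb2 and Cebpa above Cebpb in 4 of 5 and Zeb2 above Cebpd in 3 of 5. Among the LSC-labelled ones, Cebpe (62.2 FPKM) and Zeb2 (18.2) were the 1 pair of neighbours whose ranges did not overlap.

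Within the LSC-labelled group many of the extreme values fell in the same libraries. Replicate 1 held the highest value of 7 of the 9 (all but Cebpb and Klf4), and replicate 2 the lowest of 6 (Spi1, Cebpa, Cebpb, Cebpd, Cebpe and Gfi1). Klf4 went the other way and was highest in replicate 2. Klf4 and Zeb2 were lowest in replicate 3 and Irf8 in replicate 4. Estimated depth also differed, at 33580000 mapped reads in replicate 1, the lowest of the group, and 63800000 in replicate 2. Among the HSC-labelled libraries the extremes were spread out, with replicate 1 highest for 4 factors and replicate 4 lowest for 4. The summed levels of several marker lists were also highest in LSC-labelled replicate 1, at 1479 FPKM for monocyte and macrophage markers against 1008 to 1150 in the other 4, 901 against 585 to 688 for dendritic cells, 897 against 583 to 818 for T and NK cells and 883 against 244 to 393 for stroma and endothelium. Such sums can rest on few genes: Nkg7, at 563 to 866 FPKM in LSC-labelled libraries, made up most of the T and NK sum. Bst2, at 186 to 334, had the largest mean there among the dendritic cell markers. Neutrophil markers were highest in replicate 4 (20243 FPKM) and stood at 5939 in replicate 1, and erythroid markers were lowest in replicate 1 (1495). Their part in the result was not tested.

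A ratio of 2 factors within a library cancels most of how that library was scaled, and the balance of PU.1 with its partners was read this way. Spi1 stood 26.3, 28.1, 20.6, 36.2 and 29.5 times above Cebpa in HSC-labelled replicates 1 to 5 and 12.8, 13.3, 18.4, 10.5 and 13.8 times above it in the LSC-labelled ones. The 2 groups did not overlap. On the log2 scale, where 1 was added to each FPKM value, the mean ratio differed by -1.05 (4.65 ± 0.27 and 3.61 ± 0.29, SD, n = 5 each; exact permutation test, two-sided, p = 0.00794, the smallest that 5 against 5 allows, and 0.0476 adjusted over the 6 ratios examined). With 1 library left out it lay between -1.16 and -0.96. The adjusted exact permutation p was 0.0476 without HSC-labelled or LSC-labelled replicate 3 and 0.0952 without any of the other 8 libraries, since 4 against 5 allows no p below 0.0159. The smaller value without a replicate 3 reflects the adjustment, as another of the 6 ratios, given below, passed in those runs too.

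Of the 5 other ratios, 0 passed the threshold after adjustment. Cebpb to Cebpa differed by -0.94 on the log2 scale (exact permutation p = 0.0317, adjusted 0.0794) and Spi1 to Gfi1 by -0.63 (exact permutation p = 0.0397, adjusted 0.0794). The first passed without LSC-labelled replicate 3 (-1.15) and the second without HSC-labelled replicate 3 (-0.79), each with an exact permutation adjusted p of 0.0476. Cebpe to Cebpa (0.05), Irf8 to Cebpa (-0.14) and Irf8 to Gfi1 (0.27) differed by less than the SD of the HSC-labelled group (0.90, 0.57 and 0.58). Irf8 stood 13.7 times above Cebpa in the median HSC-labelled and 12.9 times in the median LSC-labelled library.

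**Figure D3:**
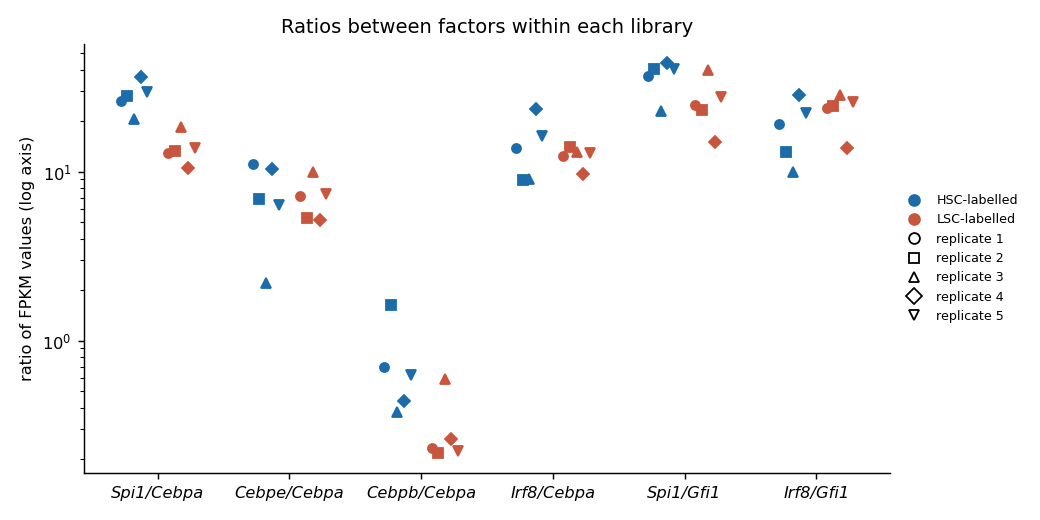
Ratio of FPKM values for 6 pairs of factors, with 1 point per library on a log axis, coloured by group and shaped by replicate number. For Spi1/Cebpa the HSC-labelled libraries (20.6 to 36.2) lie above the LSC-labelled ones (10.5 to 18.4), and for the other 5 pairs the groups overlap.

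Among 15 other ETS factors, 4 stood higher, 2 lower and 9 were not called, and 1 was higher with no filter on low values. These shares, 26.7% higher and 13.3% lower, are near the 27.2% and 13.8% of all genes. Spib, the closest relative of PU.1 and a factor of B cells and plasmacytoid dendritic cells, rose from 0.356 ± 0.190 to 4.96 ± 2.39 FPKM (limma adjusted p = 5.382e-05), and Spic, of red pulp macrophages, from 3.74 to 7.63 (adjusted p = 0.0256). The Spic log2 fold change of 0.98 lost its limma call in 6 of the 17 alternatives, among them those without HSC-labelled replicate 4 (0.0536) and without LSC-labelled replicates 1, 4 and 5 (0.0534, 0.0536 and 0.0571). Spi1 stayed above Spib in every library, 373 to 1649 times in HSC-labelled libraries and 18.8 to 45.4 times in the LSC-labelled ones. Markers of dendritic cells moved with Spib: 6 of 10 tested were higher and 0 lower, and the summed level of all 11 was 109 to 560 FPKM in HSC-labelled libraries and 585 to 901 in LSC-labelled ones. Their part in the result was not tested.

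The pair Gfi1 and Gfi1b, which bind the same DNA sequence and repress each other, changed in opposite directions. Gfi1b, the form of erythroid and megakaryocyte cells, stood at 4.17, 34.5, 1.88, 2.94 and 2.09 FPKM in HSC-labelled replicates 1 to 5 and at 59.9, 77.9, 95.4, 52.2 and 77.4 in the LSC-labelled ones (log2 fold change 3.64, limma adjusted p = 0.000556). Gfi1 exceeded Gfi1b in 4 of 5 HSC-labelled libraries, the exception being replicate 2, and in 0 of 5 LSC-labelled ones. Erythroid markers moved with it: 9 of 11 were higher and 0 lower, with a summed level of 108 to 1680 FPKM in HSC-labelled libraries and 1495 to 3108 in LSC-labelled ones. So did 9 of 9 megakaryocyte and platelet markers tested (19.2 to 275 and 806 to 1309 FPKM summed over 10), and the part of these cells was not tested. Of the 11 genes of Gfi1b and the GFI1 corepressors tested, 5 (45.5%) were higher and 0 lower, beside 27.2% and 13.8% of all genes. Among the 5 was Kdm1a, the histone demethylase LSD1, which rose from 3.56 to 7.23 FPKM (limma adjusted p = 0.000309).

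Zeb1 and Zeb2, a pair of related repressors, also diverged. Zeb1 stood at 0.758 ± 0.498 and 5.03 ± 0.401 FPKM (limma adjusted p = 1.047e-05), so that Zeb2 stood 13.9 to 105 times above it in HSC-labelled libraries and 3.32 to 3.96 times in LSC-labelled ones. Of the 6 genes of Zeb1, the Snail family, CtBP and Smad factors tested, 4 (66.7%) were higher and 0 lower (1 lower with median-of-ratios scaling). Over all genes the shares were 27.2% and 13.8%. Smad3 rose from 3.72 to 7.47 FPKM (limma adjusted p = 0.00539).

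**Figure D4:**
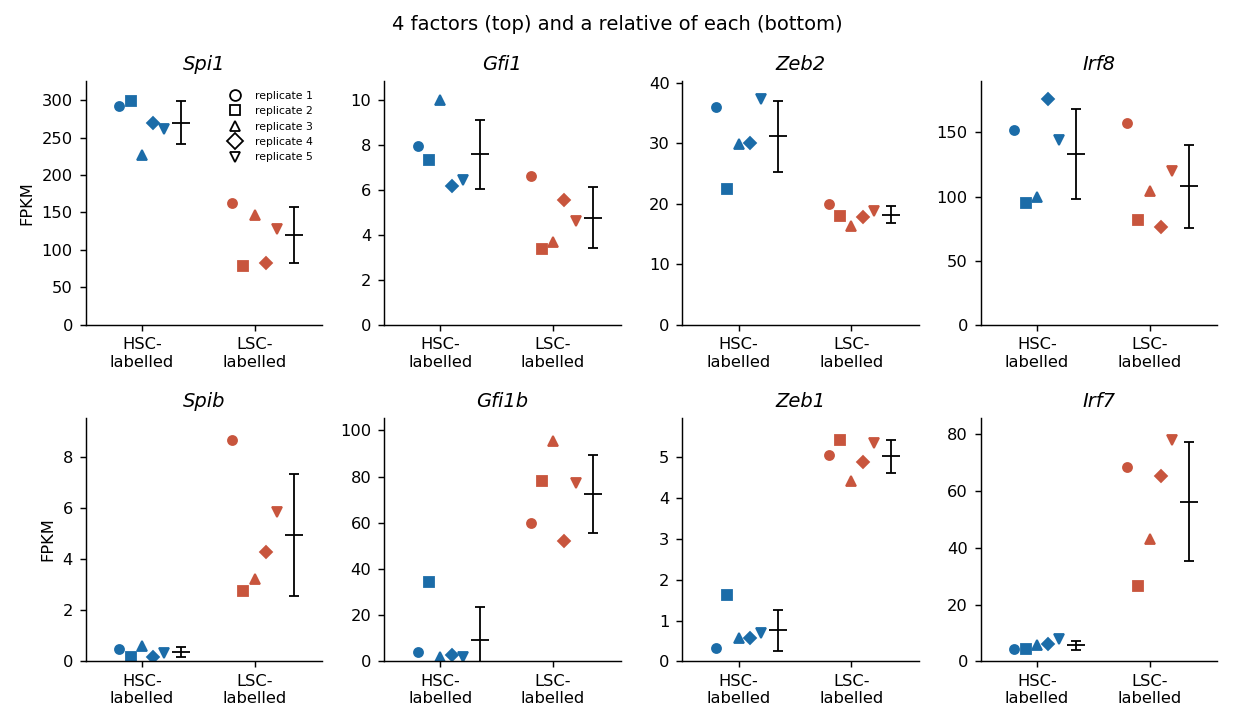
FPKM by library of Spi1, Gfi1, Zeb2 and Irf8 (top) and of a relative of each, Spib, Gfi1b, Zeb1 and Irf7 (bottom), with 1 point per library and the mean with its SD. Gfi1b is at 34.5 FPKM in HSC-labelled replicate 2 and below 5 in the other 4 of that group, and the part of its SD bar below 0 is not drawn.

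Of 8 other interferon regulatory factors tested, 3 (37.5%) were higher and 2 (25%) lower, beside 27.2% and 13.8% of all genes. Irf7, the interferon-induced factor of antiviral responses, rose from 5.64 ± 1.47 to 56.3 ± 21 FPKM (limma adjusted p = 1.100e-05), while Irf5, a factor of macrophage inflammation, fell from 59.7 ± 20.5 to 18.5 ± 4.19 (adjusted p = 0.000167). Irf8 stood 1.02 to 3.07 times above Irf5 in HSC-labelled libraries and 4.93 to 6.91 times in LSC-labelled ones. Of the other KLF factors tested, 4 of 11 (36.4%) were higher and 0 lower, beside the same 27.2% and 13.8%. Klf1, the erythroid factor, rose from 12.6 ± 23.3 to 134 ± 59.9 FPKM (limma adjusted p = 0.000771) and is itself 1 of the 11 erythroid markers above. Klf16 rose from 2.88 to 6.90 FPKM (limma adjusted p = 0.000220).

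Trib2, which marks C/EBP alpha protein for degradation and drives leukaemia in mice, rose from 0.727 ± 0.842 to 7.12 ± 1.84 FPKM (log2 fold change 2.30, limma adjusted p = 6.253e-05), and Ddit3, the stress-induced C/EBP relative CHOP, from 9.96 to 16.0 (adjusted p = 0.0103). Of the 6 other C/EBP and Tribbles genes tested, 4 (66.7%) were higher and 0 lower, beside 27.2% and 13.8% of all genes. With median-of-ratios scaling 2 were higher. Of 18 partner factors of early progenitors, 5 (27.8%) were higher, near the 27.2% of all genes, and 5 were lower (8 with median-of-ratios scaling). Hoxa9, a leukaemia-linked homeobox factor, fell from 57.0 to 7.06 FPKM (adjusted p = 3.107e-08) and Tal1, an erythroid and stem cell factor, rose from 1.49 to 9.98 (adjusted p = 0.000543). Of 13 monocyte and dendritic cell factors tested, 4 (30.8%) were higher and 2 (15.4%) lower, near the 27.2% and 13.8% of all genes, with Zbtb46, of classical dendritic cells, rising from 1.22 to 5.10 FPKM (adjusted p = 2.493e-05).

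Genes known as targets of PU.1 were mostly lower, as Spi1 itself was. Of 16, 9 fell, 2 rose and 5 were not called, a share of 56.2% lower beside 13.8% of all genes, with a median log2 fold change of -0.63 beside 0.11. Csf2ra, the GM-CSF receptor chain, fell from 180 ± 22.3 to 38.1 ± 18.3 FPKM (limma adjusted p = 4.986e-05), while Il1b, an inflammatory cytokine, rose from 1.18 to 7.74 (adjusted p = 0.000937). Fcgr1, the high-affinity IgG receptor, was the other higher member. The monocyte and macrophage list holds Csf1r, Cd68 and Fcgr1 too, and it also differed between the groups.

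Cebpa and Irf8 themselves were not called, and some of their known targets were. Of 10 C/EBP alpha targets, 3 (30%) fell and 2 (20%) rose, beside 13.8% and 27.2% of all genes, the rest not being called. Hp, haptoglobin, fell from 1093 to 281 FPKM (limma adjusted p = 2.305e-06) and Lyz2, lysozyme, from 2635 to 982 (adjusted p = 0.00285). Of 11 IRF8 targets tested, 2 (18.2%) were lower and 3 (27.3%) higher, near the 13.8% and 27.2% of all genes. Il18, an inflammatory cytokine, rose from 4.86 to 9.87 FPKM (limma adjusted p = 0.0374), a call lost in 10 of the 17 alternatives.

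Targets of C/EBP epsilon were higher although Cebpe was not called. Of 10, 7 (70%) rose and 0 fell, beside 27.2% and 13.8% of all genes, and 3 were not called. The median over the 10 was 2.61 on the log2 scale. Ltf, lactoferrin of the secondary granules, rose from 4.93 ± 2.48 to 254 ± 213 FPKM (log2 fold change 4.70, limma adjusted p = 0.00116), and Ngp, another granule protein, from 86.6 ± 85.9 to 1203 ± 991 (adjusted p = 0.00614). Chil3, at 2922 ± 4847 and 258 ± 212 FPKM, was not called (adjusted p = 0.0784). Most of these genes also serve as neutrophil markers, 10 of 12 of which were higher, with a summed level of 672 to 3486 FPKM in HSC-labelled libraries and 1732 to 20243 in LSC-labelled ones. Their part was not tested. Of 9 genes tested that GFI1 is known to repress, 3 (33.3%) were higher and 3 (33.3%) lower, beside 27.2% and 13.8% of all genes. Gfi1b and Hoxa9 showed the largest changes.

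**Figure D5:**
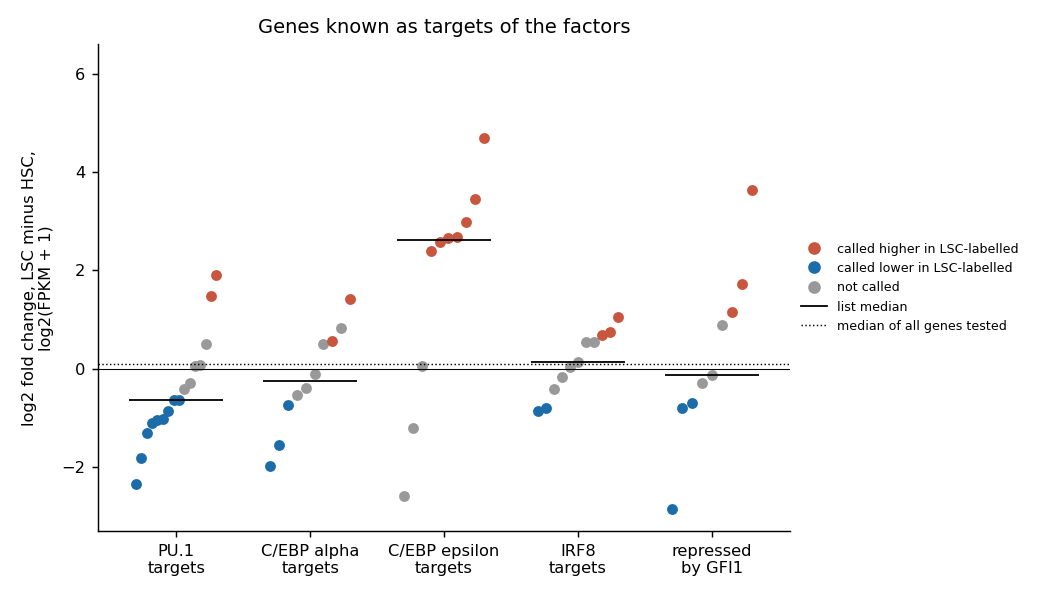
Log2 fold change (LSC-labelled minus HSC-labelled) of each tested gene in 5 lists of known targets, coloured by call, with the list's median as a bar and the median of all genes as a dotted line. PU.1 targets have a median of -0.63 and C/EBP epsilon targets of 2.61.

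Other marker lists also differed between the groups. Basophil, mast cell and eosinophil markers were higher for 8 of 9, led by Prss34 in the LSC-labelled group and Prg2 in the HSC-labelled one, stroma and endothelium markers for 8 of 9 tested, T and NK cell markers for 4 of 5 and B cell markers for 4 of 5. In both groups the most abundant genes of their lists were Ly6c2 (monocyte), S100a8 (neutrophil), Pf4 (platelet), Car1 (erythroid), Cd79b (B cell) and Nkg7 (NK cell). Bst2 (dendritic cell) and Bglap (stroma) led theirs over all libraries, while Cd74 and Pecam1 led in the HSC-labelled group alone. Of the 7 genes of the sort gates, 4 were higher and 2 lower, Fcgr3 the most abundant at 371 and 197 FPKM.

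The genes whose profile over the 10 libraries lay closest to each factor were found by the root mean square difference of centred log2 values among 5524 genes with a mean of at least 10 FPKM. For Spi1 they were Iffo1 (a difference of 0.153) and Naglu (0.158), for Zeb2 Rab32 (0.098) and Fbh1 (0.10), and for Gfi1 Ppp2r5a (0.123) and Lbp (0.178). Klf4 had Pdcd4 (0.079) and Higd2a (0.094), Irf8 Nucb1 (0.172) and Os9 (0.179), and Cebpa Capns1 (0.161) and Pgs1 (0.172). The widely varying Cebpb, Cebpd and Cebpe were matched less closely, with Atp1b3 (0.395), Kcnk12 (0.304) and Sh2d3c (0.296) the nearest.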

How the data were processed

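RNA was extracted from sorted cells, amplified by the Geo-seq method and made into libraries with a transposase kit, per the labels' protocols. The authors deposited FPKM, that is, fragments scaled to the length of the gene and to the library. The submitters' processing notes list DESeq2, HTSeq, Cufflinks 2.1.1 and Bowtie 0.12.9 and the build mm10, without saying what each did. Neither strandedness nor the annotation release is given in the sources used here. Of 51456 gene IDs, 51246 matched GENCODE M21 (GRCm38), which gave symbols and coordinates.

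FPKM values are not counts, so log2(FPKM + 1) was tested with limma 3.58.1 in R 4.3.3 (model on group, mean trend, two-sided, Benjamini-Hochberg over 13431 genes, threshold 0.05). The pseudocount of 1 understates the change of low genes. Low values of genes with 1 annotated transcript were whole multiples of a step, within 0.05, in 99.5% to 99.7% of cases, which gave the depth, but for genes with more transcripts in 39.6% to 47.9%, so no count test was run. Ratios were tested by exact permutation (scipy 1.17.1). The fit was tested on simulated data. Tables and plots used Python 3.11.15, pandas 2.3.3 and matplotlib 3.10.9.

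The factors, the 25 gene lists and the tests were chosen with earlier results of these data known. Lists came from general knowledge, and 2 called genes of largest change were named in each of 13 lists of relatives and targets, the most abundant gene in marker lists, and 2 nearest profiles per factor. Fcgr1, Chil3, Cd34, Fcgr2b, Slamf1, Cd48, Kit, Cd74, Pecam1, Prg2 and the shares of the C/EBP sum were picked with their values known. So were the overlapping genes Tmem189 and Spidr. One gene that the naming rule takes is not reported here.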

Additional observations from a re-analysis of the deposited data

Results flagged for a closer look

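A test for a single library far from the others of its group was applied to 30 sets of 5 values, the 9 factors and 6 ratios in each group, and chance alone marks about 1 set in 20. It marked 4, all ratios. The log2 ratio of Cebpb to Cebpa was -0.65 in LSC-labelled replicate 3, above the other 4. The log2 ratio of Irf8 to Cebpa was 3.11 in LSC-labelled replicate 4 and that of Irf8 to Gfi1 was 3.56 there, both below the other 4. The log2 ratio of Spi1 to Gfi1 was 4.37 in HSC-labelled replicate 3, below the other 4, and the difference between groups in that ratio was -0.79 without this library (exact permutation, adjusted p = 0.0476) in place of -0.63.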

How the results depend on the processing

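All 9 factors kept a negative log2 fold change in every alternative except Cebpe, which ran from -0.45 to 0.12 without 1 library, at 0.12 without HSC-labelled replicate 1 and 0.10 and 0.00 without LSC-labelled replicates 2 and 4. Of the factors 5 were called lower, and 2 with no filter, where 51456 genes were tested, and 3 to 6 when 1 library was left out. The calls over all genes were 5513, and 4659 to 5872 without 1 library. The calls were 66.3% higher on the deposited values against 51.8% after quantile normalization and 50.8% after median-of-ratios scaling, where the median of all genes moved from 0.11 to -0.00 and -0.01, and the factors called lower were 5 and 6. The Spi1 to Cebpa ratio differed by -1.16 to -0.96 without 1 library (adjusted p 0.0476 to 0.0952, where 0.0952 is 6 times the smallest p that 4 against 5 allows) and by -1.05 with a replicate block, where the smallest p possible is 0.0625. Without 1 library the other ratios ran from -0.32 to 0.25 for Cebpe to Cebpa, -1.15 to -0.65 for Cebpb to Cebpa, -0.28 to 0.06 for Irf8 to Cebpa, -0.79 to -0.47 for Spi1 to Gfi1 and 0.09 to 0.44 for Irf8 to Gfi1. Pim3, second nearest to Cebpe in profile, ran from -0.39 to 0.08 around its -0.11, at 0.08, 0.04 and 0.02 without HSC-labelled replicate 2 and LSC-labelled replicates 2 and 4. Same-numbered libraries of the groups correlated at -0.29 to 0.22 in their deviations, and at 0 numbers were both libraries closest to each other, so the numbers were not taken as pairs. With a replicate block 4 factors were called lower, without Cebpb (log2 fold change -1.11, adjusted p = 0.0649). With no filter, higher C/EBP epsilon targets numbered 4, IRF8 targets 1, C/EBP alpha targets 1 and GFI1 corepressors with Gfi1b 3. Higher C/EBP alpha targets numbered 4 without HSC-labelled replicate 1 and higher IRF8 targets 5 without HSC-labelled replicate 5, and lower C/EBP alpha targets 5 without HSC-labelled replicate 2. The causes were not tested. The filter and the mean trend do not enter the ratios.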

Other observations

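Low values of genes with 1 annotated transcript fell on whole multiples of 1 read, and 70.8% to 86.3% of the whole values in a library were even multiples.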
